A study of Mus musculus with 2 samples.

Results

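Interferon-stimulated genes and their regulators were described in whole lung of 1 adult female C57BL/6J mouse aged 10 weeks. Members were the protein-coding genes whose symbols name interferon receptors (Ifnar, Ifngr), STAT and IRF transcription factors, or the Ifit, Ifitm, Ifi, Oas, Gbp and Mx families, together with Isg15, Isg20, Bst2, Rsad2, Usp18, Ddx58 and Xaf1. The rule gave 77 of the 43346 genes quantified, of which 21474 were protein-coding. It used names only and no measured value.

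Polyadenylated RNA was sequenced in 2 libraries, which are technical replicates 1 and 2 of that single animal. Replicate 2 was performed later than replicate 1, with the same RNA extraction kit named for both, and the labels do not say which steps the libraries share. The mouse was of an inbred strain with no treatment or transgene named, so the data hold 1 group and no comparison between conditions. Replicates 1 and 2 held 16104442 and 17110882 expected counts. The spread between them measures library to library variation and says nothing of variation between mice, and no p-value was computed. The libraries stood far apart: 67.5% of the 14139 genes with a mean level of at least 1 TPM differed by over 2-fold, so values are given for each library.

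Interferons are secreted proteins that bind cell-surface receptors, whose associated JAK kinases phosphorylate STAT proteins. Type I interferon acts through Ifnar1 and Ifnar2 and leads to a complex of STAT proteins and Irf9 that binds the interferon-stimulated response element (ISRE). Interferon gamma acts through Ifngr1 and Ifngr2 and leads to STAT dimers that bind the gamma-activated site (GAS). The genes they switch on restrict viruses and intracellular microbes, and many are also transcribed at a tonic level in uninfected lung.

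The promoters of the members carry these elements unevenly. RefSeq promoters on GRCm38.p6, running from 250 bases before to 50 bases after the transcription start, were found for 63 of the 77 members (78 promoters), and 14 members had none in the table. The ISRE core was searched on both strands as 2 copies of GAAA separated by any 2 bases. It was present in 31 of the 78 member promoters (39.7%), against 3.44% of all 32851 promoters in the table. The 31 promoters belonged to 30 genes, and 13 of these genes held 2 or more matches. The windows below, from the strand of the gene and up to 50 bases long, show the match for the most abundant member of each family with a match before its start, and for Isg15. Capitals mark every match, and a match on the opposite strand shows 2 copies of TTTC in its place.
Stat4: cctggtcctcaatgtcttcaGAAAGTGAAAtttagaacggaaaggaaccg
Irf2: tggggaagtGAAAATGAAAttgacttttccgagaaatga
Bst2: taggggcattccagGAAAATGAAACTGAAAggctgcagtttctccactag
Isg15: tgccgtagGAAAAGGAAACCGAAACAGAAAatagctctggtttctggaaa
Ifit3: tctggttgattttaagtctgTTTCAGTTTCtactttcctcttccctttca
Ifitm2: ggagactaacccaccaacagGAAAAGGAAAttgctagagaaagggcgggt
Oas1a: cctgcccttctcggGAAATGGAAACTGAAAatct
Gbp2: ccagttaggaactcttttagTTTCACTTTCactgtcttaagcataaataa
Ifi203: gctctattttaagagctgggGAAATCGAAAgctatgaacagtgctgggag

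The Isg15 window (chr4:156200855-156200904, minus strand) held 3 overlapping matches, and those of Bst2 (chr8:71537567-71537616, minus strand) and Oas1a (chr5:120907526-120907559, minus strand) held 2 each. The Ifit3 window (chr19:34583387-34583436, plus strand) was identical over its 50 bases to that of its neighbour Ifit3b, and the windows of Ifi213 and Ifi208 were identical to each other. The Gbp2 match lay 59 to 50 bases before the start (window chr3:142620584-142620633, plus strand), and the Ifi203 match 35 to 26 bases before it (window chr1:173942498-173942547, minus strand). The remaining windows were chr1:52008123-52008172 (Stat4, plus strand), chr8:46739495-46739533 (Irf2, plus strand) and chr7:140955978-140956027 (Ifitm2, minus strand).

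The families differed in how many genes held the element. Matches were found in 4 of 4 Gbp genes with a promoter, 8 of 10 Ifi200 genes, 5 of 6 Ifit genes and 4 of 8 Oas genes, but in 2 of 7 Ifitm genes and 0 of 4 other Ifi genes. Among the regulators they were found in 2 of 6 Stat genes and 1 of 8 Irf genes, and in 0 of 4 receptor genes. Of the 44 matches, 40 lay wholly before the start. The 2 matches of Ifit1 and of Ifit1bl2 are the same genomic sites, since these genes are transcribed in opposite directions from one stretch of chromosome 19, so the 44 matches stand for 42 sites. A match is a sequence description and was not tested as a binding site.

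**Figure D1:**
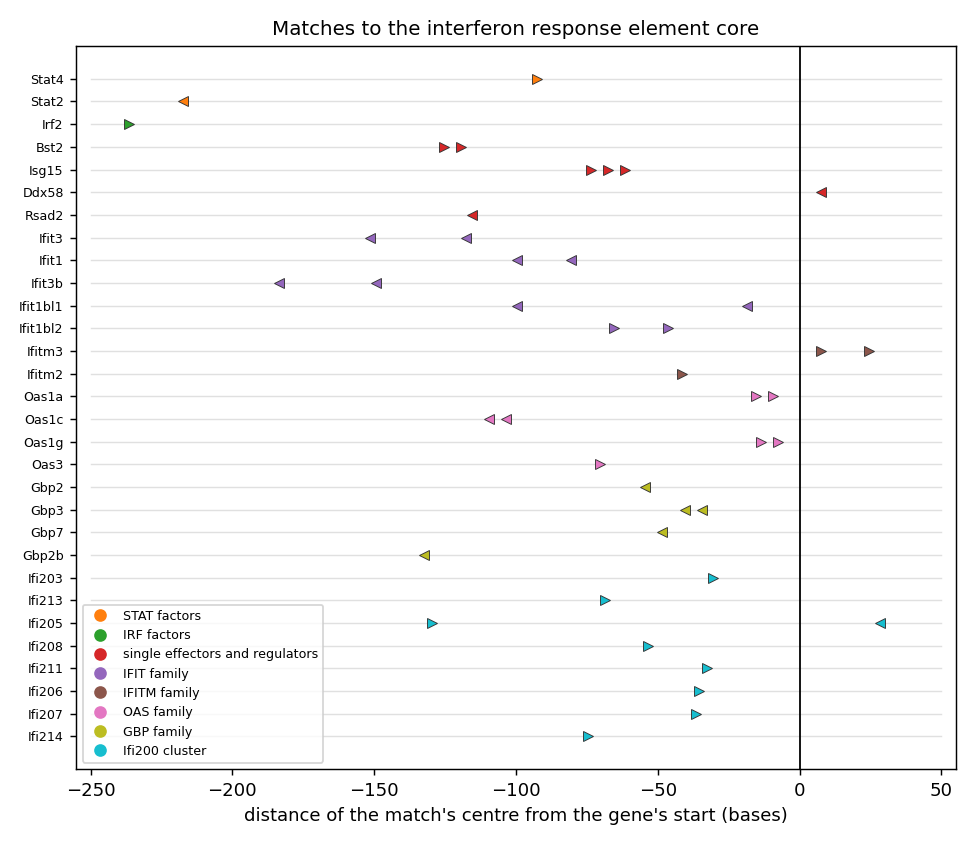
Positions of the 44 ISRE core matches in the promoters of 30 members. The x axis gives the distance in bases of each match's centre from the transcription start (vertical line), each row is a gene, triangles point right for a match on the strand of the gene and left for the opposite strand, and colours mark the families. The first base of the farthest match lay 241 bases before the start, and 40 of the 44 matches lay before it.

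The GAS core, TTCNNNGAA, reads the same on both strands. It was present in 14 of the 78 member promoters (17.9%), against 8.30% of all promoters, and 2 member promoters held a GAS core that overlapped an ISRE core. Irf1, a transcription factor known as a target of interferon gamma, held it 90 to 82 bases before its start, within the window chr11:53769904-53769952 on the plus strand, shown here with the core in capitals.
Irf1: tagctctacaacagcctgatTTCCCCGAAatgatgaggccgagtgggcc

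Most members were detected. At 1 TPM or more in both libraries (a level corrected for transcript length and scaled to a fixed total of transcripts), 58 of 77 members were present (75.3%), against 49.9% of all protein-coding genes. A further 3 members reached this level in replicate 1 alone and 7 in replicate 2 alone, 9 were below it in both, and 6 of those 9 had no read in either library. The 6 were Ifitm7, Ifi44l and the Oas1 copies Oas1d, Oas1e, Oas1f and Oas1h. Summed over the members, the level was 1738 TPM in the first library and 4060 TPM in the second, which is 0.290% ± 0.164 of all transcripts (SD, n = 2 libraries). In whole tissue, fewer cells of a type and less RNA per cell cannot be told apart.

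The order of the members differed between the libraries. In replicate 1 the 5 most abundant members were Ifngr1, Ifnar2, Ifitm2, Gbp2 and Ifi203, which held 30.1% of the members' summed TPM. In replicate 2 they were Ifi27l2a, Ifitm3, Ifitm2, Bst2 and Ifi27, which held 66.4%. Only Ifitm2 was in both lists, and 11 members were among the top 20 of both libraries. Across the 66 members with a mean TPM of at least 1, log2(TPM + 1) in the libraries had a Pearson r of 0.41, and the r over all 14067 genes tested with a known GC content was 0.56. These are correlations across genes of the same 2 libraries, given as a description.

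**Figure D2:**
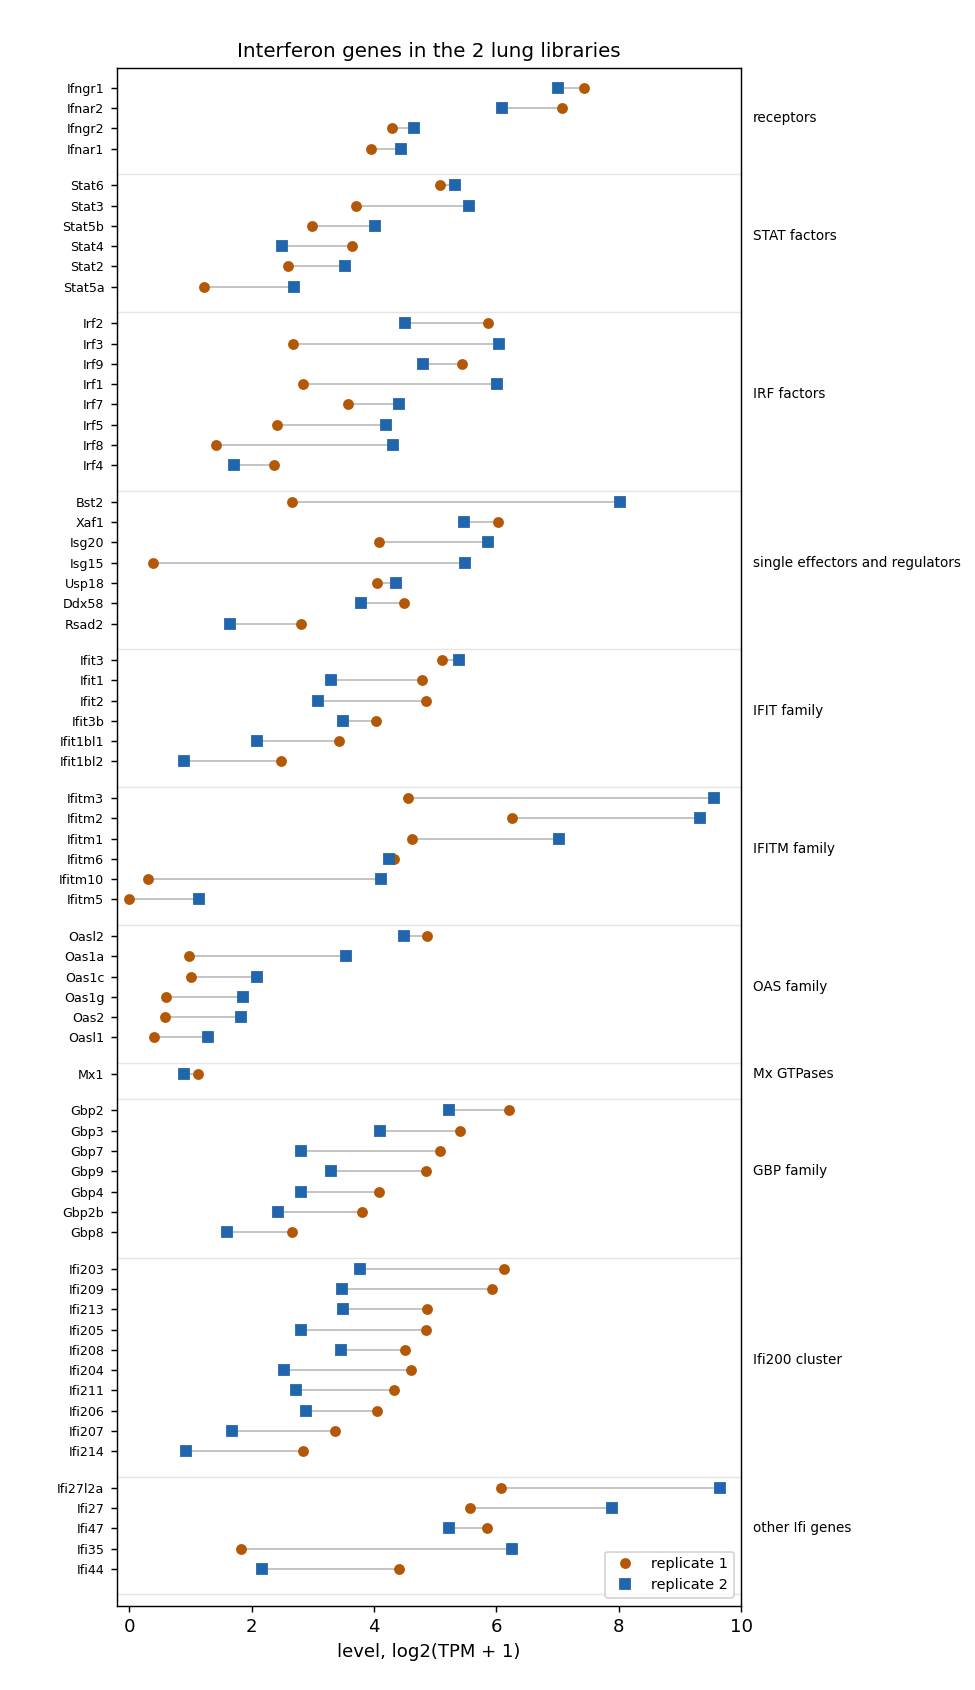
Level of 66 of the members that reached a TPM of at least 1 in at least 1 library, as log2(TPM + 1) on the x axis, by family. Each row is a gene, the circle is replicate 1, the square is replicate 2, and the line joins them. The Gbp and Ifi200 circles lie to the right of their squares in every row, while those of Bst2, Isg15, Ifitm3 and Ifi35 lie far to the left.

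Library ratios were taken as replicate 2 over replicate 1, from counts scaled with TMM factors, with a 95% interval that covers counting error only. The ratio exceeded 2 in 23 of the 66 members tested, it was below 0.5 in 22, and in 21 it lay between these limits. Over all 14139 genes tested, 39.3% exceeded 2 and 28.2% were below 0.5, or 67.5% in either direction. The members' shares, 34.8% and 33.3%, are near that background. Their median log2 ratio was -0.29, against 0.19 for all genes tested. A filter by gene name, for near-identical copies, left out the Ifi200 and Oas1 genes, Ifit3, Ifit3b, Ifit1bl1, Ifit1bl2, Gbp4, Gbp8 and Gbp9. It did not use measured read sharing, and it removed all 10 Ifi200 genes tested, 8 of them below 0.5. Of the remaining 46 members, 20 exceeded 2, 9 were below 0.5 and the median was 0.39, so the order against all genes turned. With no second pair of libraries these ratios have no replicate check, and they describe the libraries and not a response of the lung.

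**Figure D3:**
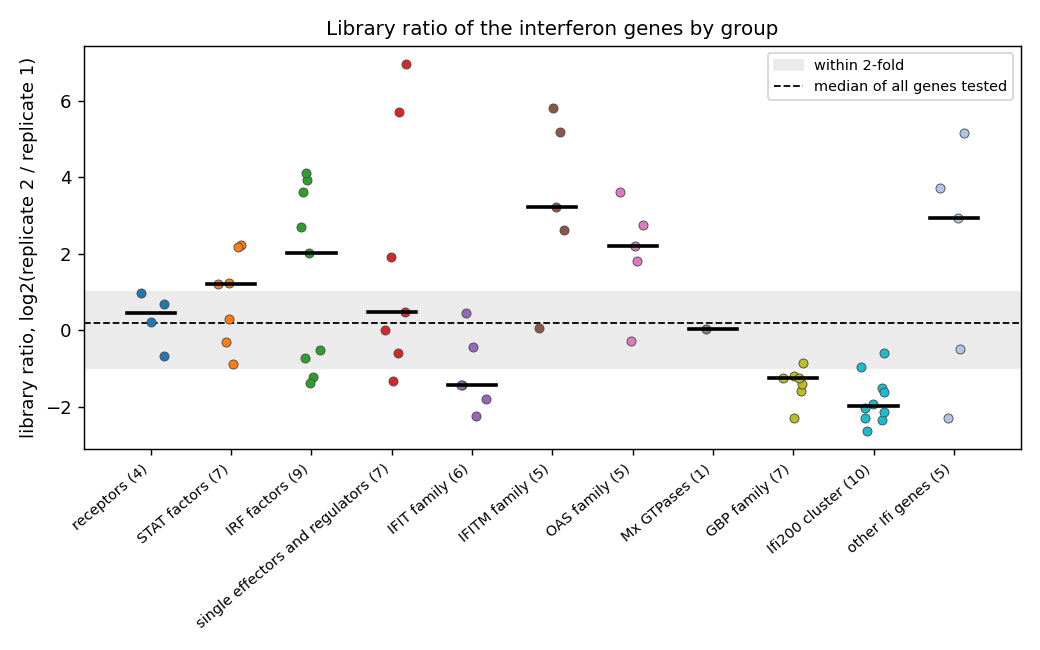
Log2 ratio of replicate 2 to replicate 1 on the y axis for the 66 members tested, by family, with the number of genes in brackets. Each point is a gene, the thick bar is the family's median, the grey band marks ratios within 2-fold and the dashed line is the median of all genes tested, 0.19. The Stat, Irf, Ifitm, Oas and other Ifi medians lie above the band, and the Ifit, Gbp and Ifi200 medians below it.

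The ratio followed the GC content of the transcripts closely. Of the 38 members tested with a GC content below 50%, 22 were over 2-fold lower in replicate 2 and 0 were over 2-fold higher. Of the 28 at 50% or more, 23 were over 2-fold higher, and none was lower by that much. All genes tested showed the same order: 54.1% of those below 50% GC were over 2-fold lower, and 70% of those at or above it were over 2-fold higher. Across the 66 members, Pearson's r between GC content and the log2 ratio was 0.81 (Spearman's rho 0.87), and across the 14067 genes tested with a known GC content it was 0.77 (rho 0.82). Mean transcript length ran the other way, with an r of -0.55 in the members and -0.29 in all genes.

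A smooth trend of the log2 ratio on GC content was therefore fitted over all genes tested and subtracted. It left 14 members with a ratio above 2, 11 with a ratio below 0.5 and 41 between. The matching shares of all genes were 22.6% and 20.5%, or 43.1% in either direction. The members' median then was 0.10, and that of all genes -0.02. Of the 23 members higher at first, 13 stayed over 2-fold higher, and of the 22 lower members 3 stayed over 2-fold lower, among them Gbp3 and Gbp7. The families below are therefore given with their GC content, whose part in each single ratio was not tested.

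**Figure D4:**
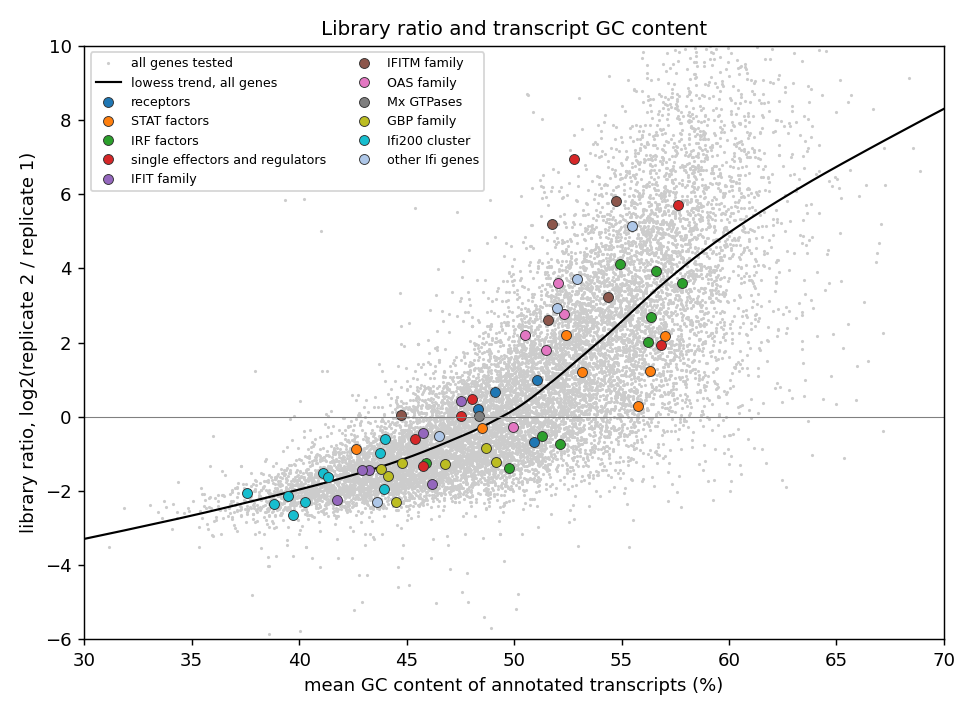
Log2 ratio of replicate 2 to replicate 1 (y axis) against the mean GC content of each gene's annotated transcripts in percent (x axis). Grey points are all genes tested, the black line is their lowess trend, and coloured points are the 66 members by family; 75 of the grey genes lie outside the axes. No member below 50% GC lies above a log2 ratio of 1, and none at or above 50% lies below -1.

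All 4 receptor genes were detected in both libraries, all 4 ratios were within 2-fold with TMM scaling, and their GC contents were close to each other, from 48.3% to 51.1%. With the GC trend subtracted Ifnar2 was over 2-fold lower in replicate 2 (log2 value -1.24), and with scaling by total counts Ifngr2 was over 2-fold higher (1.24, against 0.98 with TMM scaling). Ifngr1, the ligand-binding chain of the interferon gamma receptor (chr10:19591949-19610229), was at 172 and 128 TPM in replicates 1 and 2, or 150.2 ± 30.9 (SD, n = 2). It was the most abundant member in replicate 1 and ranked 7 in replicate 2. Ifngr2, the signalling chain of the same receptor, was at 18.6 and 24.1 TPM, well below its partner in both libraries.

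Summed over transcripts, the genes of the type I receptor chains were unequal too. Ifnar2, which binds the ligand with high affinity, was at 134 and 67.2 TPM. Ifnar1, its partner chain, was at 14.5 and 20.8 TPM. The ratio of Ifnar2 was 0.625 (95% interval 0.580 to 0.674), and that of Ifnar1 was 1.60 (1.44 to 1.78). Most of the Ifnar2 abundance was assigned to the short transcript Ifnar2-203 of 1099 bases, with 92.9% and 83.0%, and the long transcript Ifnar2-201 of 3047 bases held 7.0% and 13.8%. Ifnar2-201 was at 9.38 and 9.26 TPM, below Ifnar1 in both libraries, so the excess of Ifnar2 rested on Ifnar2-203. Ifnar1, Ifnar2 and Ifngr2 lie together within 192.8 kb (chr16:91372783-91565623), and Ifngr1 lies apart on chromosome 10.

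The 7 Stat genes, the transcription factors downstream of these receptors, were all detected in both libraries. Their summed level was 137 and 154 TPM in replicates 1 and 2. Stat2, which acts in type I signalling, was at 5.03 and 10.5 TPM. Its ratio was 2.31 (2.00 to 2.69).

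Stat3, the main factor of interleukin 6 signalling, was at 12.1 and 46.2 TPM with a ratio of 4.64 (4.23 to 5.11). Stat6, which acts downstream of interleukin 4, was at 32.9 and 39.0 TPM. Stat4, which acts downstream of interleukin 12, was at 11.5 and 4.66 TPM. The pair Stat5a and Stat5b, which act downstream of cytokines such as interleukin 2 and of growth hormone, was at 1.33 and 5.49 TPM and at 6.97 and 15.1 TPM. Over 2-fold higher in replicate 2 were Stat2, Stat3, Stat5a and Stat5b, and no Stat gene was over 2-fold lower. Among all genes tested these shares were 39.3% and 28.2%. The family's median log2 ratio of 1.21 became -0.43 with the GC trend subtracted, so its direction depended on that step.

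All 9 Irf genes were detected in both libraries, and the family split by GC content. Irf9, the DNA-binding part of the type I complex, was at 42.5 and 27.0 TPM (ratio 0.698, 0.638 to 0.763). Irf2, known as a competitor of Irf1 at shared sites, was at 57.0 and 21.8 TPM. Irf2 and Irf9 were the highest Irf genes in replicate 1.

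In replicate 2 the highest were Irf3 and Irf1. Irf3, which is activated by viral RNA and DNA sensing, was at 5.36 and 65.3 TPM. Of its abundance, 100% and 67.3% was assigned to transcripts absent from the reference annotation that gave the GC contents. Irf1, the factor whose promoter is shown above, was at 6.16 and 63.3 TPM, with a ratio of 17.3 (14 to 21.7). Their GC contents were 56.6% and 55%, and that of Irf2 was 45.9%. Irf1 was the only Irf gene still over 2-fold higher in replicate 2 with the GC trend subtracted, at a log2 value of 1.57.

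The other Irf genes act in particular immune cells. Irf8, a factor of dendritic cells and macrophages, was at 1.68 and 18.8 TPM. Irf5, which acts in myeloid inflammatory responses, was at 4.32 and 17.3 TPM. Irf4, a factor of lymphocytes, was at 4.18 and 2.27 TPM and the lowest Irf gene on average. Irf7, the factor that amplifies interferon alpha production, was at 10.9 and 20.4 TPM, although its counts of 63 and 520 gave a ratio of 6.48 (4.98 to 8.55).

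The gap between the count ratio and the TPM values of Irf7 came with a change of transcript. In replicate 1, 90.8% of its abundance was assigned to Irf7-205, a retained-intron transcript of 687 bases, and 0% to the coding transcript Irf7-201. In replicate 2, Irf7-205 held 0% and Irf7-201, of 1916 bases, held 50.7%. The family's median log2 ratio was 2.02 and became -0.61 with the GC trend subtracted, so for the Irf genes too the direction depended on that step.

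Among the 7 single effectors and regulators, Isg15, Bst2 and Isg20 were over 2-fold higher in replicate 2 and Rsad2 was over 2-fold lower. Isg15, the ubiquitin-like protein conjugated to other proteins after interferon (chr4:156199424-156200818), had 2 counts in replicate 1 and 395 in replicate 2, or 0.31 and 43.7 TPM. Its ratio of 155 carried a wide interval, 42.6 to 1284, since it rested on 2 counts, and it was the highest of all members. Its log2 ratio was 6.96 before and 5.51 after subtraction of the GC trend, at a GC content of 52.8%.

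Bst2, or tetherin, which holds budding virions at the cell surface, was at 5.35 and 260 TPM (35 and 2381 counts), a ratio of 53.4 (38.3 to 76.8). Isg20, a 3' exonuclease for RNA, was at 15.9 and 57.5 TPM. Its log2 ratio of 1.92 became -1.61 with the GC trend subtracted, at a GC content of 56.8%. Bst2 stayed over 2-fold higher in replicate 2 with that step, and Isg20 did not.

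The other 4 had lower GC contents, from 45.4% to 48.1%, and smaller ratios. Usp18, the protease that removes Isg15 from proteins and dampens Ifnar2 signalling, was at 15.5 and 19.5 TPM. Xaf1, an interferon-induced protein linked to apoptosis, was at 64.1 and 43.3 TPM with a ratio of 1.01 (0.876 to 1.17). Ddx58, the RNA sensor RIG-I, was at 21.4 and 12.8 TPM. Rsad2, or viperin, an antiviral radical-SAM enzyme, was at 6.00 and 2.14 TPM with a ratio of 0.394 (0.314 to 0.492).

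The Ifit genes encode RNA-binding proteins with tetratricopeptide repeats that block translation of viral RNA. Their 6 members form 1 cluster of 99.3 kb (chr19:34550694-34650009) and had a summed level of 117 and 71.6 TPM. Ifit3 was highest in both libraries, at 33.4 and 40.9 TPM, and was the only Ifit gene with a ratio above 1, at 1.35 (1.22 to 1.5). Ifit2 was at 27.8 and 7.5 TPM and Ifit1 at 26.5 and 8.83 TPM. The copies Ifit3b, Ifit1bl1 and Ifit1bl2 were at 15.4 and 10.3 TPM, at 9.71 and 3.25 TPM and at 4.56 and 0.87 TPM. The 4 members Ifit1, Ifit2, Ifit1bl1 and Ifit1bl2 were over 2-fold lower in replicate 2. Over all genes tested 28.2% were over 2-fold lower. By GC content it was 82.5% of those under 45% and 34.3% from 45% to under 50%.

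Read sharing was small in this cluster. The posterior standard deviation of the deposited count, an estimate of the uncertainty in dividing reads between similar genes, was 7.0 and 6.59 counts for Ifit3 and for Ifit3b, at most 2.24% of either count. The Ifit median log2 ratio of -1.44 became 0.03 with the GC trend subtracted, at a median GC content of 44.5%. No Ifit gene then differed by over 2-fold.

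The Ifitm genes encode small membrane proteins that block virus entry by fusion. Their summed level was 141 and 1561 TPM, the largest difference between the libraries of the 11 groups. Ifitm3, the best known barrier to influenza virus (chr7:141009586-141010770), was at 22.6 and 755 TPM with a ratio of 36.7 (30.8 to 44.1). Ifitm2 was at 75.2 and 641 TPM and Ifitm1 at 23.5 and 129 TPM. Ifitm10 had 3 and 252 counts, a ratio of 65.9 (22.3 to 322).

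Ifitm6 was the exception in the family, at 19.0 and 18.1 TPM with a ratio of 1.04 (0.766 to 1.42). Its GC content of 44.7% was also the lowest of the 7 Ifitm genes, whose median was 51.8%. With the GC trend subtracted, all 5 Ifitm genes tested were over 2-fold higher in replicate 2, Ifitm6 included, with a median log2 value of 1.76. Of all genes tested, 22.6% were over 2-fold higher with that step. Ifitm2 was only just past the limit, at a log2 value of 1.0009. Ifitm5, known from bone cells, had 0 and 10 counts, and a count of 0 allows up to 3 counts.

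The Oas genes encode sensors of viral RNA that make 2'-5' oligoadenylate, the activator of RNase L. Their 11 members lie on chromosome 5 and summed to only 32.3 and 43.0 TPM. Oasl2 held most of that sum, at 28.3 and 21.5 TPM with a ratio of 0.826 (0.738 to 0.925). Oas1a was at 0.96 and 10.7 TPM, Oas1c at 1.02 and 3.25 TPM, Oas1g at 0.51 and 2.61 TPM and Oas2 at 0.50 and 2.56 TPM. These 4 were over 2-fold higher in replicate 2, and all but Oas1c remained so with the GC trend subtracted. Of all genes tested, 39.3% were over 2-fold higher before that step and 22.6% after it. Oas1c was then just short of the limit, at a log2 value of 0.984. Oasl1, a relative of Oasl2, was at 0.32 and 1.44 TPM and Oas3 at 0.63 and 0.94 TPM, too low on average to enter the ratios.

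Reads were shared unevenly among the Oas1 copies. The posterior standard deviation was 6.26% and 1.21% of the count for Oas1a and 24.8% and 7.36% for Oas1g, and 0 counts for Oas1c, so the Oas1g value in replicate 1 (4.64 counts) is uncertain. Mx1, a dynamin-like GTPase against influenza viruses and a gene known to be disrupted in C57BL/6 mice, was at 1.19 and 0.85 TPM. Of its abundance, 75.0% and 100% was assigned to Mx1-205, a transcript annotated for nonsense-mediated decay.

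Guanylate-binding proteins, the Gbp family, are large GTPases that attack vacuoles holding intracellular microbes and are strongly induced by interferon gamma. All 7 members were detected in both libraries, and all 7 were lower in replicate 2, with 6 of them over 2-fold lower. Over all genes tested 28.2% were over 2-fold lower. The Gbp GC contents ran from 43.8% to 49.2%. Of all genes tested, 82.5% under 45% GC and 34.3% from 45% to under 50% were over 2-fold lower. The summed level of the family was 209 and 80.0 TPM. Gbp2 was highest in both libraries, at 73.0 and 36.7 TPM, with a ratio of 0.555 (0.517 to 0.595). Gbp3 followed at 41.6 and 16.1 TPM and Gbp7 at 32.7 and 5.99 TPM.

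The Gbp genes sit in clusters on chromosome 3 (4 members within chr3:142530342-142638008) and chromosome 5 (3 members within chr5:105014150-105139586). On chromosome 5 Gbp9 was at 28.0 and 8.84 TPM, Gbp4 at 15.9 and 5.97 TPM and Gbp8 at 5.34 and 2.04 TPM. The annotated spans of these 3 genes overlap on the same strand, so the division of reads among them depends on the gene models. The family's median log2 ratio of -1.26 was -0.56 with the GC trend subtracted, and all 7 values stayed below 0. Gbp3 and Gbp7 stayed over 2-fold lower, and of all genes tested 20.5% were over 2-fold lower with that step.

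The row of Gbp2b, at 13 and 4.42 TPM, holds mostly another gene. The transcript Gbp5-201, which the reference annotation places in Gbp5, made up 95.6% of that row in replicate 1 and 92.9% in replicate 2. The value is therefore not read here as the level of Gbp2b. Of 80 genes that meet the rule in the reference annotation, Gbp5, Gbp6 and Gbp10 had no row of their own and were not analysed here.

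The Ifi200 genes encode proteins with pyrin or HIN domains, several of which bind DNA, and are the mouse relatives of human IFI16. Their 11 members form 1 cluster of 563 kb (chr1:173468485-174031810). Their summed level was 281 and 69.1 TPM, and all 10 genes tested were lower in replicate 2, with 8 of them over 2-fold lower. Over all genes tested 28.2% were over 2-fold lower, and under 45% GC, where the whole cluster lies, 82.5% were. Within the cluster Ifi203 was highest, at 69.2 and 12.7 TPM with a ratio of 0.197 (0.18 to 0.215). Ifi209 followed at 60.2 and 10.1 TPM. Ifi213 was at 28.2 and 10.3 TPM, Ifi205 at 27.9 and 6.01 TPM and Ifi208 at 21.7 and 10.0 TPM. The other 5 genes tested, Ifi204, Ifi206, Ifi207, Ifi211 and Ifi214, ran from 6.16 to 23.3 TPM in replicate 1 and from 0.90 to 6.45 TPM in replicate 2.

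The cluster's GC content was the lowest of all families, with a median of 40.3% and a range from 37.4% to 44.0%. Its median log2 ratio of -2.0 became 0.02 with the GC trend subtracted. Then 5 genes were above and 5 below 0, and none differed by over 2-fold. Read sharing was largest for Ifi211 and Ifi205, with posterior standard deviations of 15.3 and 14.1 counts in replicate 1 and of 8.85 and 8.44 counts in replicate 2. The 11th member, Ifi202b, had 2 and 0 counts, both below the limit of 3, and no ratio is given.

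The other Ifi genes held the most abundant member on average. Ifi27l2a, a small protein of the ISG12 family (chr12:103442167-103443680), was at 66.6 and 805 TPM with a ratio of 13.2 (11.5 to 15.2), and it ranked 7 in replicate 1 and 1 in replicate 2. Its neighbour Ifi27, of the same family, was at 46.6 and 236 TPM. Ifi35, a regulator of the interferon response, was at 2.53 and 75.2 TPM with a ratio of 36.3 (25.1 to 54.4). These 3 stayed over 2-fold higher in replicate 2 with the GC trend subtracted.

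Ifi47, a GTPase of the immunity-related family, was at 56.8 and 36.4 TPM and within 2-fold. Ifi44, an interferon-induced cytoplasmic protein, was at 20.2 and 3.52 TPM with a ratio of 0.203 (0.169 to 0.244). Ifi27l2b, beside Ifi27l2a, had only 7 and 4 counts. Within the ISG12 cluster on chromosome 12 the level thus ran from the highest mean of all members to below 1 TPM.

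Among members with at least 100 counts over both libraries, those of lowest ratio were Ifi214, Ifi203, Ifi209, Gbp7, Ifi44 and Ifit1bl2. Their ratios ran from 0.158 for Ifi214 to 0.208 for Ifit1bl2, and their GC contents from 38.8% to 44.5%. The highest ratios were those of Isg15, Ifitm10, Bst2, Ifitm3, Ifi35 and Irf1. Their GC contents ran from 51.8% to 57.6%, and all 6 stayed over 2-fold higher with the GC trend subtracted, against 22.6% of all genes tested. The 6 were picked for the size of these same ratios, so their staying above the limit is no separate check.

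The transcript assigned most of a gene's abundance also differed between the libraries. Of 37 members with 2 or more transcripts and at least 100 counts in each library, 9 had a different main transcript in replicate 2, against 26.7% of 6054 such genes overall. They included Irf9, Irf4, Xaf1, Ifit1bl1, Gbp3, Ifi203, Ifi213 and Ifi27.

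Some of these changes were between near-equal coding transcripts. Ifit1bl1 had 99.9% in Ifit1bl1-202 of 2215 bases in replicate 1 and 100% in Ifit1bl1-201 of 2193 bases in replicate 2. Irf4 had 59.1% in Irf4-201 in replicate 1 and 98.2% in Irf4-202 in replicate 2, transcripts of 4715 and 4712 bases. All 4 of these transcripts are annotated as protein-coding.

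In Irf9 and Ifi27 the main transcript was also a coding one in each library, and in Xaf1 it changed class. Irf9 had 96.6% in the coding Irf9-205 in replicate 1 and 54.1% in the coding Irf9-202 in replicate 2. Xaf1 had 64.9% in the decay transcript Xaf1-201 of 415 bases in replicate 1 and 55.5% in the coding Xaf1-202 in replicate 2. Ifi27 had 44.3% in Ifi27-203 in replicate 1, and in replicate 2 Ifi27-205 and Ifi27-201 held 37.9% and 27.1%. Its share in coding transcripts differed too, at 45.7% and 74.1%, and the retained-intron transcript Ifi27-209 held 40.5% and 16.5%.

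**Figure D5:**
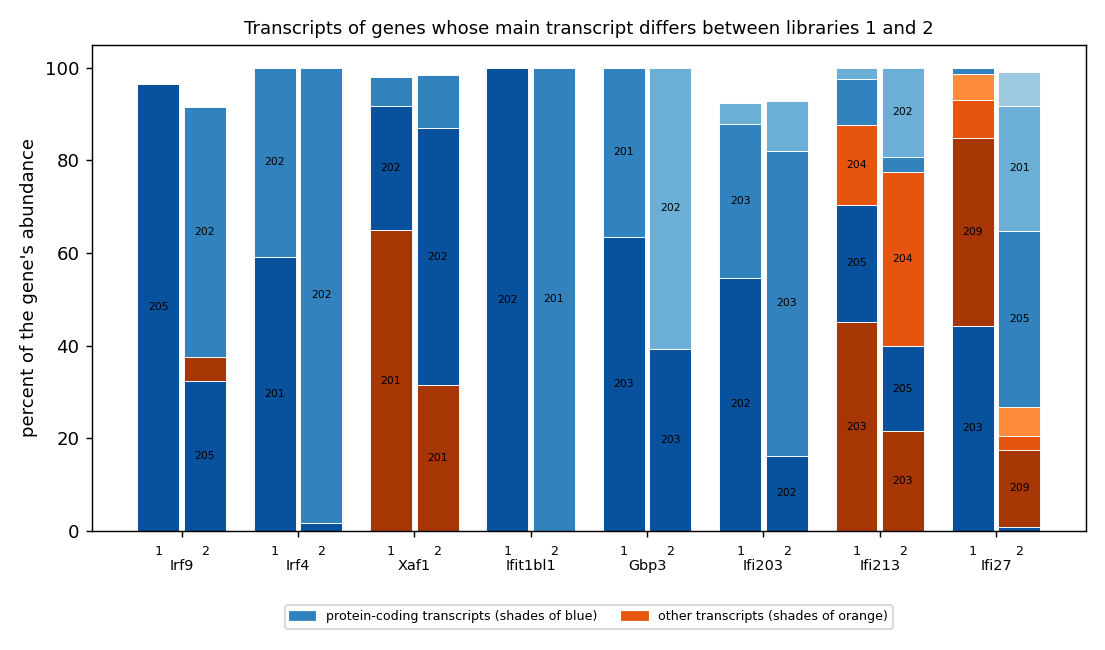
Percent of each gene's abundance (y axis) assigned to its transcripts in replicates 1 and 2 for 8 members whose main transcript differed. Stacked bars are coloured blue for protein-coding and orange for other transcripts, with the last 3 digits of the transcript name, and only transcripts with at least 5% in 1 of the libraries are drawn, so some bars end below 100%. Ifit1bl1 changes wholly from 1 transcript to another, and Irf9-202 holds 54.1% in replicate 2 alone.

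Transcripts with no full coding frame held much of some members even where the main one was shared. In Ifngr1, the retained-intron transcript Ifngr1-204 of 747 bases held 39.8% in replicate 1 and 0.49% in replicate 2. Oasl2 had 89.1% and 62.3% in the decay transcript Oasl2-205, and Ifi214 had 91.8% and 96.0% in the decay transcript Ifi214-201. Ddx58 had 49.8% and 64.5% in Ddx58-205, annotated as a processed transcript. These shares are estimates from the authors' quantification and carry no replicate error.

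Members with the ISRE core were set beside those without it, among the 63 with a promoter, leaving out the Gbp2b row for its content, a choice made after seeing the data. Of the 28 tested with the core, 8 were over 2-fold higher in replicate 2 and 13 lower by that much, with a median log2 ratio of -0.92. Of the 26 tested without it, 12 were higher and 3 lower, with a median of 0.83. Their median GC contents differed, at 45.6% with the core and 51.6% without. With the GC trend subtracted the medians were 0.27 and -0.40, so the order of the sets turned. Median levels were 15.6 and 10.03 TPM with the core in replicates 1 and 2, and 10.9 and 18.8 TPM without it.

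The rest of the interferon pathway was read from a list of 66 further genes. Of these, 41 were detected in both libraries and 45 were tested, of which 14 had a ratio above 2, 13 a ratio below 0.5 and 18 lay between, with a median log2 ratio of -0.59. The shares of all genes tested were 39.3% and 28.2%. With the GC trend subtracted 4 of the 45 were over 2-fold higher, 7 were lower by that much and 34 lay between, with a median of -0.12. The shares of all genes tested with that step were 22.6% and 20.5%. All 21 genes that encode interferons themselves were below 1 TPM in both libraries. Ifng, the gene of interferon gamma, had 5 and 7 counts, Ifnab had 0 and 1, and the other 19, among them Ifnb1 and the Ifna genes, had no read. A count of 0 allows up to 3 counts, or 0.186 and 0.175 CPM (reads scaled to the library total) in replicates 1 and 2.

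The kinases that carry the receptor signal were present. Jak1, shared by both receptor types, was at 90.8 and 43.8 TPM, and Jak2, of the interferon gamma receptor, was at 42.6 and 13.1 TPM. Of the negative regulators the phosphatase gene Ptpn6 was at 1.99 and 39.4 TPM and Pias1, an inhibitor of STAT proteins, at 21.1 and 12.2 TPM. Il10rb, a shared chain of the interferon lambda receptor, was at 67.7 and 52.5 TPM, and Ifnlr1, its specific chain, at 1.03 and 3.01 TPM. Il10rb was far above Ifnlr1 in both libraries.

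The conjugation enzymes of Isg15 differed from each other. Uba7, the activating enzyme of Isg15, was at 0.84 and 35.1 TPM (ratio 125, 57.0 to 340), whereas Ube2l6, its conjugating enzyme, was at 83.2 and 58.6 TPM. Of the sensing genes, Tbk1, the kinase of Irf3, was at 24.2 and 14.7 TPM and Ifih1, the RNA sensor MDA5, at 29.3 and 7.58 TPM. The immunity-related GTPases Tgtp2 and Iigp1, relatives of Ifi47, were at 55.7 and 21.6 TPM and at 48.1 and 11.3 TPM. Samhd1, which removes the nucleotides viruses need, was at 148 and 63.8 TPM, although its counts of 2770 and 3000 gave a ratio of 0.850 (0.807 to 0.895). Shisa5 was at 55.2 and 195 TPM.

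Markers of the tissue were also far apart in the libraries. The 8 lung markers, among them Scgb1a1, Sftpc and Ager, summed to 18562 and 220828 TPM. All 8 were over 2-fold higher in replicate 2, against 39.3% of all genes tested. They stayed so with the GC trend subtracted, against 22.6% of all genes. The 3 erythroid markers summed to 1901 and 24454 TPM, the 3 cardiac muscle markers to 85.3 and 700.3 TPM, and the 4 leukocyte markers to 1906 and 2443 TPM. The leukocyte markers went opposite ways, with Cd74 at 21.9 and 1464 TPM, Ptprc at 107 and 30.9 TPM and Chil3 at 1766 and 941 TPM. Those of plasmacytoid dendritic cells, a main source of type I interferon, summed to 83.5 and 26.4 TPM, of which Tcf4, also expressed in other cell types, made up 78.4 and 23.1 TPM. The defining marker Siglech was at 3.43 and 2.32 TPM and Ccr9 at 1.60 and 1.05 TPM. Of the markers of organs outside the lung, the thymocyte genes summed to 0.04 TPM in each library and the liver genes to 1.44 and 2.65 TPM, with Ttr at 0. The part of cell content in the members' ratios was not tested.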

How the data were processed

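Polyadenylated RNA of whole lung was sequenced in 2 libraries, technical replicates of 1 animal. Per the file headers and labels, the authors deposited expected counts and TPM values per gene and transcript, with the percent of each gene's abundance per transcript and a posterior standard deviation of each count, on mm10 (GRCm38) with GENCODE M4; the aligner, quantifier and strand setting: not given in the sources used here. Gene names, biotypes, positions and GC content (mean over annotated transcripts) came from GENCODE M21, which matched 42462 of the 43346 gene identifiers. Transcripts not matched to it held 100% and 67.3% of Irf3, 100% and 100% of Ifit1bl2 and 95.2% and 68.6% of Ifi206 in replicates 1 and 2. The GC contents of these genes therefore rest wholly or mostly on transcripts other than those quantified. Members and lists were chosen with earlier results of these data known. Expected counts were rounded and scaled with TMM factors of edgeR 4.0.16 (0.913 and 1.10) in R 4.3.3, and log2 ratios used a prior of 0.5 counts. Every gene whose mean TPM reached 1 was set against a 2-fold limit, without p-values. Intervals of count ratios are exact Clopper-Pearson intervals at 95% and cover counting error only. The GC trend was a lowess curve with a span of 0.3 over all genes tested (statsmodels 0.14.6). The ratio step was tested on simulated counts with no GC trend, in which few genes changed, equally in both directions. Here 67.5% of the genes tested differed by over 2-fold, so that test cannot vouch for the scaling of these libraries. Alternatives were size factors of DESeq2 1.42.0, total counts, ratios of TPM, other filters and left-out libraries. Depth and counting limits were 16104442 and 17110882 expected counts, where a count of 0 allows 0.186 and 0.175 CPM. Named genes were the receptor, Stat and Irf genes, the 5 most abundant of each other family, the 6 highest and 6 lowest ratios, and members with a differing main transcript; of the pathway list, the 2 most abundant of each class and every interferon above 0. Other genes named are given to account for all members and were chosen after their values were seen. Mx2, Oas1b, Gbp11 and Ifi30 are not protein-coding in GENCODE M21 and were not analysed here. Results for 2 members are not reported here, and counts over the members include them.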

Additional observations from a re-analysis of the deposited data

How the results depend on the processing

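With the GC trend subtracted, the members over 2-fold higher in replicate 2 went from 23 to 14, those over 2-fold lower from 22 to 11, and the median log2 ratio from -0.29 to 0.10. The median was -0.025 with scaling by total counts and -0.58 as a ratio of TPM, while that of all genes tested moved from 0.19 to 0.45 and 0.01. Without the members left out by name for near-identical copies, 9 were over 2-fold lower and the median was 0.39. Of 58 named ratios, DESeq2 size factors, which shift all ratios by a common amount, moved 0 by more than their counting interval. By the same measure total counts moved 33 and the ratio of TPM moved 17. GC subtraction moved 41 and reversed a further 11, and left 6 the same. In all, 16 changed sign under GC subtraction, of which 11 had been over 2-fold: Stat5b (-2.03), Stat2 (-0.43), Stat5a (-1.46), Irf7 (-0.61), Irf5 (-1.20), Irf8 (-0.41), Isg20 (-1.61), Ifit1 (0.0062), Ifit1bl1 (0.052), Ifi213 (0.28) and Ifi205 (0.26). The cause was not tested. Of the ratios within 2-fold, 2 changed sign under DESeq2 size factors (Xaf1 and Mx1) and 4 as a ratio of TPM (these and Ifngr1 and Ifitm6), and with total counts none of the 58 did. Leaving out 1 library gave 61 to 65 members detected, 41 to 45 pathway genes detected and a summed share of 0.174% to 0.406%. Members detected ranged from 44 to 65 at a TPM minimum of 5 and 0.5. The count of members with a differing main transcript was 13 at a minimum of 20 counts and 8 with posterior means. Removing the Gbp2b row, a choice made after seeing the data, left 21 members over 2-fold lower. Members with under 20 counts in a library, such as Isg15, Ifitm10, Oas1a and Oas1g, have wide intervals. No paired analysis was possible because the data hold 1 group.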
